A study of Mus musculus with 14 samples.

Results

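The genes described here are those that read the mycobacterial part of complete Freund's adjuvant, CFA, in the mouse: the C-type lectin receptors Clec4e (Mincle), Clec4d (MCL), Clec4n (Dectin-2) and Clec7a (Dectin-1), the adaptors Card9, Bcl10 and Malt1, the cytosolic receptor Nod2 and its kinase Ripk2. A gene was taken when the accession of an array probe carried its symbol in RefSeq, whatever its values. Of the 9 genes, 8 were found, by 11 probes, among 24908 genes tested. No probe was paired with Clec7a, so its level is not given. Card9, Malt1 and Nod2 have 2 probes each and the other 5 genes 1 each, and 10 of the 11 probes passed the filter on dim signal, with at least 1 for each of the 8 genes.

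CFA is an oil that holds killed mycobacteria. Mincle and MCL bind the glycolipids of the mycobacterial wall and Dectin-2 binds its mannose-capped glycans. Dectin-1 is best known for fungal beta-glucans. Mincle, MCL and Dectin-2 signal through the Fc receptor gamma chain (Fcer1g), and all reach, by way of the kinase Syk, a complex of CARD9, BCL10 and MALT1, which turns on NF-kB. NOD2 senses muramyl dipeptide, a piece of the wall's peptidoglycan, and recruits RIPK2, which leads to the same transcription factor. In the spleen, neutrophils, monocytes, macrophages and dendritic cells are the known main users of the lectins and of CARD9, while BCL10 and MALT1 also serve the antigen receptors of B and T cells.

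Splenocyte RNA was compared between 7 wild-type (WT) mice and 7 Sting gt/gt mice, each on 1 one-colour array. All 14 mice were C57BL/6, 10 to 14 weeks old, and had received CFA with chicken type II collagen (CII) in the skin 2 weeks earlier, and no uninjected mouse was analysed here. The Sting gt (golden ticket) allele came from a chemical mutagenesis and changes the protein of the DNA-sensing adaptor STING in every cell of the animal. The study states that STING protein is then undetectable by western blot, and it calls these mice Sting-deficient. WT mice were purchased and Sting gt/gt mice came from another laboratory, both were bred in the same facility, and whether they were littermates is not given in the sources used here. Red cells had been lysed before the RNA was taken.

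The arrays were scanned on 2 days, replicates 1 to 3 of both genotypes on the first and replicates 4 to 7 on the second. They lay on 6 slides, and on the second day WT arrays filled 2 slides and Sting gt/gt arrays 1, so that slide and genotype cannot be told apart there. Between 30781 and 34400 of 56605 probes per array were well above background, and every pair of arrays correlated at 0.96 or higher. The targeted gene, Sting1, had a mean log2 signal of 3.10 ± 0.17 in WT mice and of 3.14 ± 0.11 in Sting gt/gt mice (SD, n = 7 each), with a two-sided exact permutation p of 0.605. The allele acts on the protein, so this RNA does not check the genotype labels. In whole splenocytes, fewer cells of a type and less RNA per cell cannot be told apart.

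The promoters of 3 genes are shown, because Clec4e and Clec4d are neighbours on chromosome 6, and Card9 is the gene that passed the test. Clec4n, Clec4d and Clec4e follow each other in that order among protein-coding genes of the RefSeq annotation. The 250 bases before the start, 5′ to 3′ in the direction of the gene (RefSeq, GRCm38.p6), lie at chr6:123289872-123290121 on the minus strand for Clec4e, at chr6:123261857-123262106 on the plus strand for Clec4d and at chr2:26360910-26361159 on the minus strand for Card9. Capitals mark matches to 4 motifs searched on both strands. The site of PU.1 and other ETS factors was searched in the form GAGGAA only. The palindrome known for C/EBP factors was searched as TTGCNNAA, the box of TATA-binding protein as TATAAA, and the element of the AP-1 factors as TGANTCA.
Clec4e: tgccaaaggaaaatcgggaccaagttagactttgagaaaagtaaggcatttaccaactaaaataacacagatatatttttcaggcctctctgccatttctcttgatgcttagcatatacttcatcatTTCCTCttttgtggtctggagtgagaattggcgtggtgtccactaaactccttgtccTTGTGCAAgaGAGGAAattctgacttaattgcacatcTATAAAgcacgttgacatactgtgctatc
Clec4d: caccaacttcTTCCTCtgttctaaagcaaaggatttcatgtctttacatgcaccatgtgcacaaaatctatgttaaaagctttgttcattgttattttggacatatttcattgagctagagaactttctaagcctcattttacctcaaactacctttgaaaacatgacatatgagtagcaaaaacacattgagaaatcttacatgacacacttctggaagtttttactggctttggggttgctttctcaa
Card9: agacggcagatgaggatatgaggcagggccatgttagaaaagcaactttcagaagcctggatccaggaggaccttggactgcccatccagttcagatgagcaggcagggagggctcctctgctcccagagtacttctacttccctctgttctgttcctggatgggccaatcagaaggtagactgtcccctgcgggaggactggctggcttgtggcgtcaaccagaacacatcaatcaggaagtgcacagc

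The Clec4e promoter held GAGGAA at 2 places, 123 and 56 bases before the start, a C/EBP match from 66 bases and TATAAA from 29 bases before it. The Clec4d promoter held 1 GAGGAA, and that of Card9 held none of the 4 motifs in the forms searched. Other forms of ETS site were not searched. Over 32817 RefSeq promoters of the same length, 23.3% held GAGGAA, 9.57% TTGCNNAA, 12.4% TATAAA and 6.75% TGANTCA. No match of one motif overlapped a match of another in these 3 sequences. These are matches of letters, not measured binding.

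Card9 was higher in Sting gt/gt mice and was the only one of the 8 genes past the threshold, an unadjusted p under 0.05 in limma, while the 3 lectins stood 0.19 to 0.29 higher on the log2 scale without passing it. Of all 24908 genes, 1.92% were called higher and 3.54% called in either direction. Beside that background, 1 call among 8 genes is no result about the 8 as a set. No gene of the 8 passed after Benjamini-Hochberg adjustment, where 1 gene of 24908 (0.00401%) did. Blocking on the replicate number raised the calls over all genes from 882 to 1408, and the call of Card9 stayed. Bcl10, Malt1 and Ripk2 lay between -0.09 and 0.00, and the ranges of the genotypes overlapped for all 8, as they did for all but 0.0482% of genes.

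**Figure D1:**
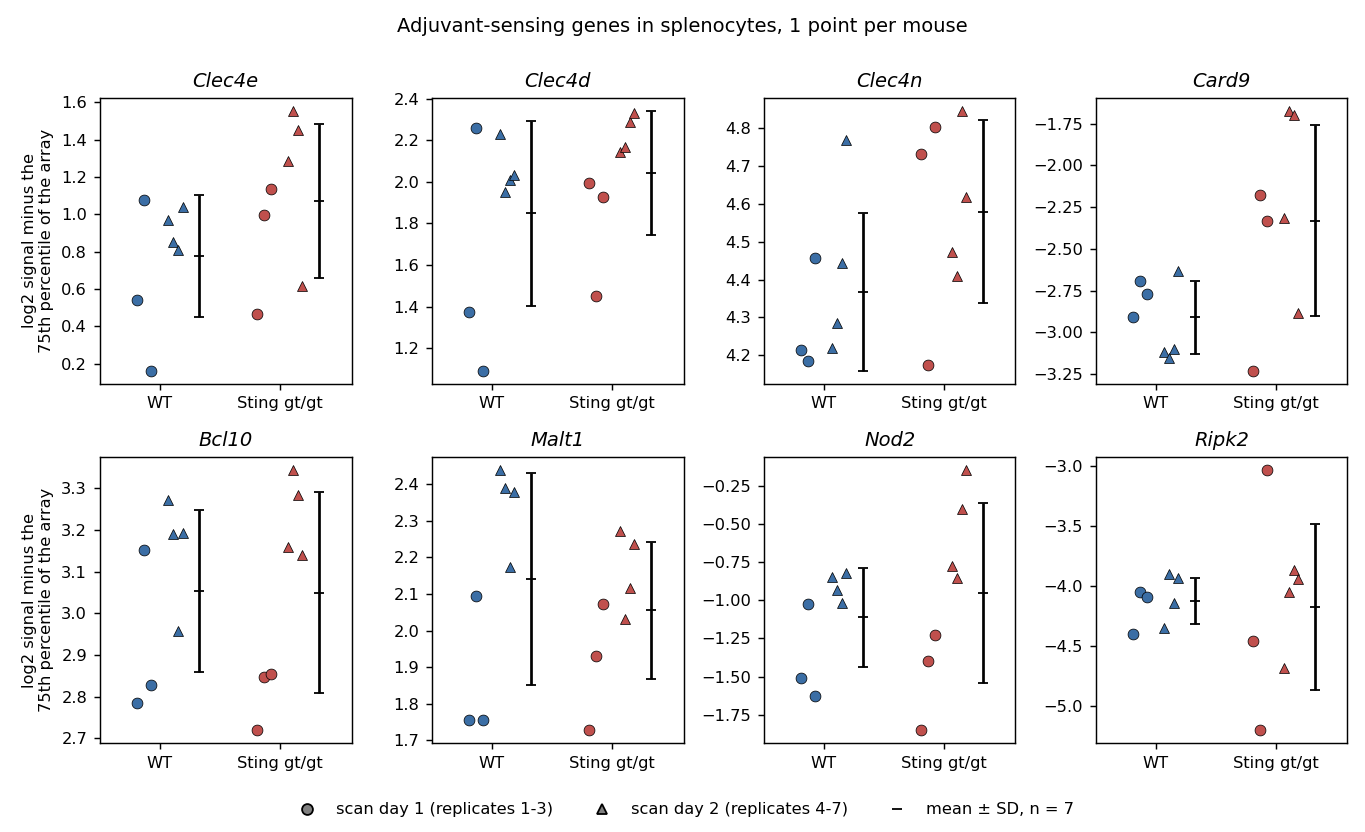
Log2 signal minus the 75th percentile of the array (y axis) of the 8 genes in WT (blue) and Sting gt/gt (red) mice, 1 point per mouse, with circles for scan day 1 and triangles for scan day 2; the bars are mean ± SD, n = 7. The ranges of the genotypes overlap in every panel, and 5 Sting gt/gt mice lie above the highest WT mouse for Card9.

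CARD9 is the adaptor that links the lectins to BCL10 and MALT1. On the log2 scale relative to each array's 75th percentile, Card9 ran from -3.15 to -2.63 with a median of -2.91 in WT mice. In Sting gt/gt mice it ran from -3.23 to -1.67 with a median of -2.31. Of the 7 Sting gt/gt mice, 5 were above the highest WT mouse, and the other two, replicates 1 and 7, were within or below the WT range. The mean of Sting gt/gt minus the mean of WT was 0.58 (SE 0.22, 95% interval 0.12 to 1.04), a 1.49-fold difference, with an unadjusted limma p of 0.0173, an adjusted limma p of 0.999 and a two-sided exact permutation p of 0.0303. The SD was 0.57 in Sting gt/gt mice and 0.22 in WT mice. Card9 was among the genes that the study picked from these same arrays, so its direction is not independent evidence.

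The Card9 difference was also taken by scan day, slide and probe. Between replicates 1 to 3 it was 0.21 (two-sided exact permutation p = 0.5, where 3 against 3 cannot go below 0.1), and between replicates 4 to 7 it was 0.86 (p = 0.0571 by the same exact test, where 4 against 4 cannot go below 0.0286). The differences of both days were not shown to differ, with an exact permutation p of 0.236. Taking slide as a random block, the difference was 0.34 and no longer passed. As a fixed block, slide left the 5 arrays of the 2 slides that hold both genotypes to set the difference, and it was 0.0072. The second Card9 probe, well above background on 10 of 14 arrays, gave 0.24 (SE 0.24), which did not pass, while both probes varied together over the 14 arrays within genotype and scan day. Their Pearson r was 0.80 (exact p = 0.0310, adjusted over 3 genes 0.0464) and Spearman's rho 0.92 (exact p = 0.00135, adjusted 0.00405), with 0.80 without the 2 farthest mice. The log2 values in the authors' series table gave 0.55 (SE 0.23, limma p = 0.0293) with an exact permutation p of 0.0513.

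Neutrophil markers moved with Card9. The mean of 14 neutrophil markers, all well above background on every array, spanned 5.37 to 6.06 in WT mice, against 5.17 to 6.23 in Sting gt/gt mice. Its difference was 0.18 (exact permutation p = 0.337), with 12 of 14 markers higher and 0 past the threshold. Among replicates 1 to 3 it was -0.02 and among replicates 4 to 7 it was 0.33, beside the 0.21 and 0.86 of Card9. Within genotype and scan day, Card9 and this mean correlated over the 14 arrays with r = 0.90 (exact p = 0.00940, 0.0837 after adjustment over 56 relations) and rho = 0.78 (exact p = 0.0318, adjusted 0.156). The r was 0.92 on scan day 1, 0.89 on scan day 2 and 0.75 without the 2 mice farthest from the median of Card9. Sting gt/gt replicates 1 and 7, the lowest of their genotype for Card9, were also lowest for the neutrophil markers, at 5.54 and 5.17. The WT mice alone did not clearly show this relation. On scan day 2, WT replicate 7 was highest for Card9 (-2.63), with 5.47 for the neutrophil markers. That was below WT replicates 4 and 5 (5.54 and 5.49), whose Card9 was lower (-3.12 and -3.15). On scan day 1, WT replicate 2 was the highest WT mouse for both (-2.69 and 6.06). The r of each genotype apart was not taken. The part of the neutrophil markers in the Card9 difference was not tested.

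**Figure D2:**
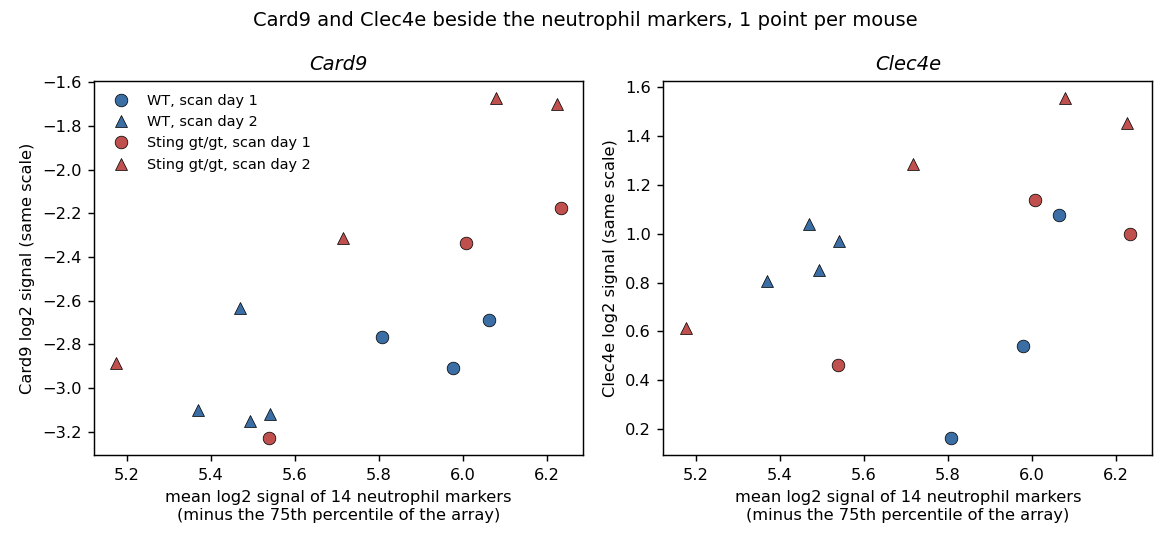
Log2 signal of Card9 (left) and Clec4e (right) on the y axes against the mean log2 signal of 14 neutrophil markers on the x axes, both minus the 75th percentile of the array, 1 point per mouse, blue for WT and red for Sting gt/gt, circles for scan day 1 and triangles for scan day 2. The Sting gt/gt mice with the lowest neutrophil markers, 5.17 and 5.54, are also the lowest of their genotype for both genes.

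Among the receptors, Clec4e (Mincle) spanned 0.16 to 1.08 (median 0.85) in WT mice, against 0.46 to 1.55 (median 1.14) in Sting gt/gt mice. Above the highest WT mouse lay 4 Sting gt/gt mice, and the other 3 were within the WT range. The difference was 0.29 (SE 0.19, 95% interval -0.11 to 0.70) with an exact permutation p of 0.161, and it was 0.27 and 0.31 on the 2 scan days. Clec4e passed the limma threshold without Sting gt/gt replicate 1, where the difference was 0.40, and with array weights (0.38), and it fell to 0.19 without WT replicate 3, the lowest with 1 array left out.

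Clec4d (MCL), which pairs with Mincle at the cell surface, spanned 1.09 to 2.26 (median 2.01) in WT mice, against 1.45 to 2.33 (median 2.14) in Sting gt/gt mice. The lowest values of both genotypes were on scan day 1. The difference was 0.19 (SE 0.19, 95% interval -0.21 to 0.60), with an exact permutation p of 0.335. It was 0.069 without WT replicate 3, 0.12 without WT replicate 1 and 0.29 without Sting gt/gt replicate 2. Clec4n (Dectin-2) spanned 4.18 to 4.77 (median 4.29) in WT mice, against 4.17 to 4.85 (median 4.62) in Sting gt/gt mice. Of the Sting gt/gt mice, 6 of 7 were above the WT median, and the lowest of all 14 mice, replicate 2, was also Sting gt/gt. Its difference was 0.21 (SE 0.13, 95% interval -0.06 to 0.48), with an exact permutation p of 0.109, and leaving out WT replicate 7 or Sting gt/gt replicate 2 put it past the threshold at 0.28 (limma p = 0.0364 and 0.0360). The 3 lectins were higher in Sting gt/gt mice within each scan day, and 5 of the 8 genes kept their sign on both days, where 40.1% of all genes did.

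**Figure D3:**
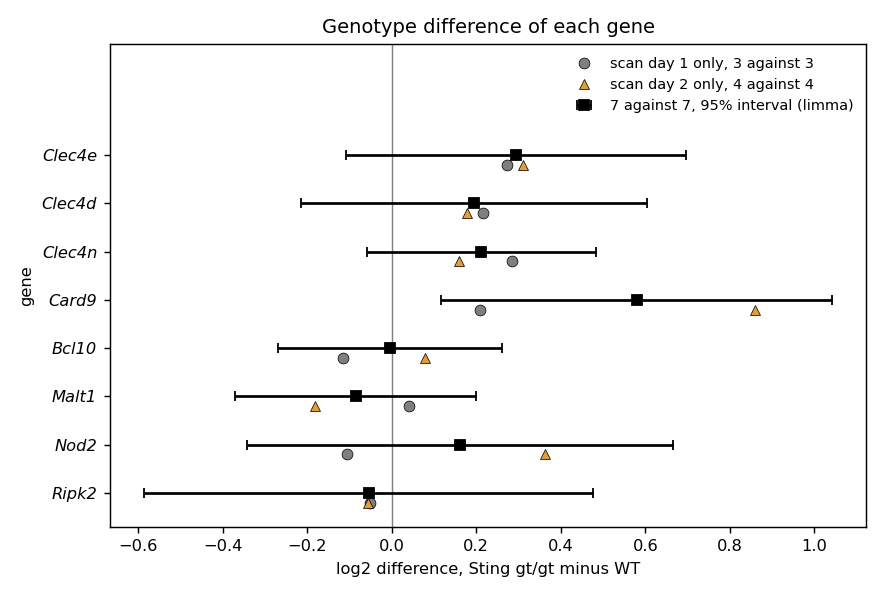
Log2 difference, Sting gt/gt minus WT (x axis), of each gene, with the square and bar giving the limma estimate and its 95% interval over 7 against 7 mice, the circle scan day 1 and the triangle scan day 2. The interval of Card9 alone, 0.12 to 1.04, lies above 0, with 0.21 on scan day 1 and 0.86 on scan day 2.

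BCL10 and MALT1 complete the complex with CARD9. Bcl10 spanned 2.79 to 3.27 in WT mice, against 2.72 to 3.34 in Sting gt/gt mice, with medians of 3.15 and 3.14. The interval of its difference, -0.27 to 0.26, holds no change beyond 0.27 in either direction. Malt1 spanned 1.76 to 2.44 (median 2.17) in WT mice, against 1.73 to 2.27 (median 2.07) in Sting gt/gt mice, a difference of -0.09 (SE 0.13, 95% interval -0.37 to 0.20). Its second probe gave -0.11 (SE 0.30). Whether these differences are unlike that of Card9 was not tested.

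NOD2 and RIPK2 form the intracellular branch. Nod2 spanned -1.63 to -0.82 (median -1.01) in WT mice, against -1.85 to -0.14 (median -0.85) in Sting gt/gt mice. The 2 highest values, -0.40 and -0.14, were Sting gt/gt mice of scan day 2, and the lowest was a Sting gt/gt mouse of scan day 1. The difference was 0.16 (SE 0.24, 95% interval -0.34 to 0.66), being -0.11 on scan day 1 and 0.36 on scan day 2 (exact permutation p of that change = 0.149), and it turned to -0.07 and -0.24 with slide as a random or a fixed block. Leaving out Sting gt/gt replicate 7 made it 0.027, the lowest with 1 array left out, while the highest, 0.31, came without replicate 1 of the same genotype. The second Nod2 probe was not well above background on any array. Ripk2 was well above background on 10 of 14 arrays, 6 of WT and 4 of Sting gt/gt mice, which limits its precision. It spanned -4.40 to -3.90 in WT mice, against -5.20 to -3.04 in Sting gt/gt mice, with medians of -4.09 and -4.05, and the difference was -0.05 (SE 0.25, 95% interval -0.59 to 0.48). With slide as a random or a fixed block it was -0.21 and -0.61, neither of which passed.

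More of these genes differed between the scan days than between the genotypes, and the same held over all genes. Since each day holds other mice, scan and mice cannot be told apart. With genotype in the same limma model, Nod2 was higher on the second day by 0.72, Clec4d by 0.46, Malt1 by 0.37 and Bcl10 by 0.33 (SE 0.15, 0.15, 0.09 and 0.09), with adjusted p of 0.00179, 0.0272, 0.00622 and 0.00833. These are 4 of 8 genes, where 38.8% of all genes were called and 18.3% were called higher on the second day. Beside that background, 4 calls among 8 genes are no result about the 8 as a set. Across other scalings and the mean of a gene's probes the count was 3 to 5. For Nod2, every mouse of the second day was above every mouse of the first. The second Malt1 probe went the other way, lower on the second day by 0.91 on the log2 scale, while its first probe was higher by the 0.37 given above. The second Card9 probe was lower on the second day by 0.64, and the first stood 0.11 higher (SE 0.22) without passing, with a lower mean on that day in WT mice and a higher one in Sting gt/gt mice. In the authors' series table none of the 8 genes and 0 of 24908 genes differed between the scan days after adjustment in limma, and 348 had an unadjusted p under 0.05.

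The genes were also set against each other across the mice. Of 28 pairs among the 8 genes, 23 had a positive r within genotype and scan day, and none passed adjustment of r over the pairs. For Clec4e with Card9, r was 0.78 (exact p = 0.00458, adjusted 0.0641) and rho 0.75 (exact p = 0.00492, adjusted 0.0689), with 0.63 and 0.92 within the scan days and 0.78 without the 2 farthest mice. For Clec4e with Bcl10, r was 0.73 (exact p = 0.00294, adjusted 0.0641) and rho 0.80 (exact p = 0.00174, adjusted 0.0486), with 0.85 and 0.59 within the scan days and 0.75 without the 2 farthest mice. Clec4e and its neighbour Clec4d had r = 0.37 and rho = 0.22 (exact p = 0.421 and 0.570), with 0.59 on scan day 1 and -0.28 on scan day 2. Whether the r of one pair differs from that of another was not tested. Malt1 and Nod2 had r = 0.74 (exact p = 0.0192, adjusted 0.166) and rho = 0.67 (exact p = 0.0399, adjusted 0.280), with 0.98 and 0.39 within the scan days and 0.59 without the 2 farthest mice.

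**Figure D4:**
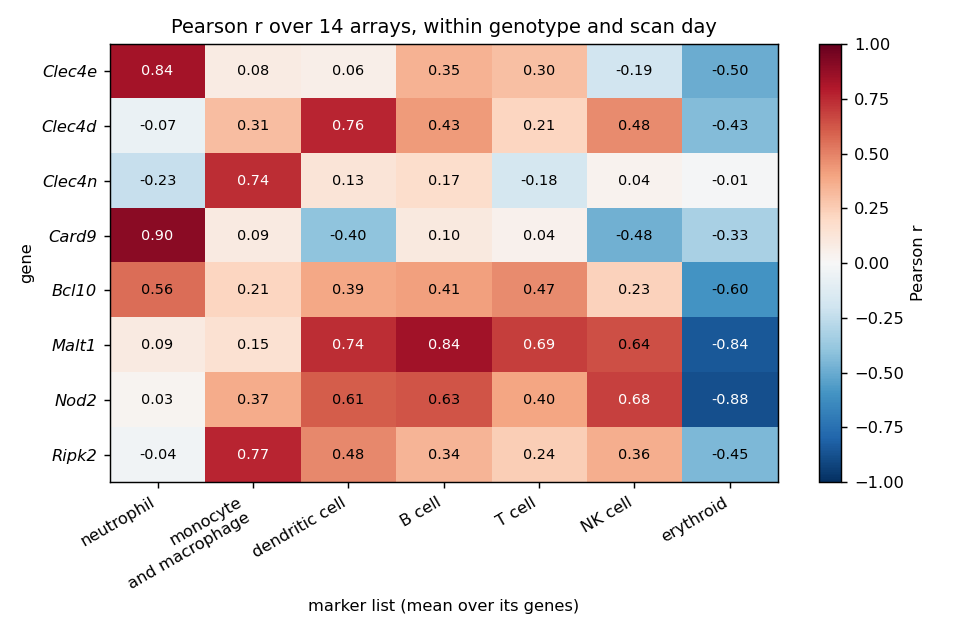
Pearson r over 14 arrays, within genotype and scan day, between each of the 8 genes (rows) and the mean of each of 7 marker lists (columns), red for positive and blue for negative. Card9 (0.90) and Clec4e (0.84) are highest for neutrophils, Clec4n (0.74) and Ripk2 (0.77) for monocytes and macrophages, Clec4d (0.76) for dendritic cells and Malt1 (0.84) for B cells.

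Against 7 lists of cell type markers, the list with the highest r was not the same for all genes. Clec4e had its highest r with the neutrophil markers, as Card9 did, without passing adjustment of r, at 0.84 (exact p = 0.00333, adjusted over 56 relations 0.0621) and rho = 0.86 (adjusted 0.0324), 0.76 and 0.93 within the scan days and 0.74 without the 2 farthest mice. With genotype means alone removed it was 0.38. Clec4n and Ripk2 were closest to the markers of monocytes and macrophages, with r = 0.74 and 0.77 (adjusted p of r = 0.114 and 0.108) and rho = 0.67 and 0.76. Without the 2 farthest mice these r were 0.58 and 0.60. Clec4d was closest to the dendritic cell markers (r = 0.76, adjusted p = 0.108; rho = 0.70), at 0.93 and 0.36 within the scan days and 0.64 without the 2 farthest mice. Bcl10 had r = 0.56 (adjusted p = 0.0670) and rho = 0.74 (adjusted p = 0.0324) with the neutrophil markers, but r = -0.06 with genotype means alone removed. With the erythroid markers it had r = -0.60 (adjusted p = 0.127) and rho = -0.59 (adjusted p = 0.162). Malt1, which B and T cells use, had its highest r with the B cell markers at 0.84 (exact p = 0.00275, adjusted 0.0621), rho = 0.87 (adjusted 0.0324), 0.91 and 0.78 within the scan days and 0.81 without the 2 farthest mice. It was not particular to them. With dendritic, T and NK cell markers its r was 0.74, 0.69 and 0.64, and rho 0.69, 0.78 and 0.73 (adjusted p of rho 0.156, 0.0459 and 0.0873). With the markers of neutrophils and of monocytes and macrophages r was 0.09 and 0.15.

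One of the 56 relations passed adjustment of r, that of Nod2 with the erythroid markers. It was negative, with r = -0.88 (exact p = 9.65e-05, adjusted 0.00540) and rho = -0.89 (adjusted 0.0135), -0.98 and -0.76 within the scan days and -0.87 without the 2 farthest mice. All 10 erythroid markers tested were well above background on all arrays although red cells had been lysed. Their mean spanned 5.48 to 6.26 in WT mice, against 5.07 to 6.38 in Sting gt/gt mice, a difference of -0.27 (exact permutation p = 0.195) in which 7 of 10 markers were lower and 2 of them called, among these Tfrc, the transferrin receptor (-0.52). The haemoglobin genes Hba-a1, Hba-a2 and Hbb-bt stood at 0.06, 0.07 and 0.11 and did not pass. Malt1 also ran against the erythroid markers (r = -0.84, adjusted p = 0.0670; rho = -0.75, adjusted p = 0.124). The part of erythroid RNA in the values of Nod2 and Malt1 was not tested.

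For the other 5 lists no genotype difference of the mean passed. The mean of the B cell markers was lower by 0.12 in Sting gt/gt mice (0.21 higher on scan day 1 and 0.37 lower on scan day 2), that of the NK cell markers was higher by 0.20, that of monocytes and macrophages by 0.09, and those of dendritic cells and T cells by 0.03 and 0.00, with exact permutation p from 0.205 to 0.976 over these 5 lists. Ly6g and Hbb-bs were not matched to a probe, and every other marker was tested and well above background on all 14 arrays.

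The genes most like the 3 lectins, Card9 and Nod2 over the 14 arrays, chosen among 14716 genes with a symbol by the highest r of deviations within genotype and scan day, are given as a description. For Clec4e they were Hdc, which makes histamine, Ugt1a10 and Myd88, the adaptor of Toll-like receptors (r = 0.98, 0.97 and 0.97). For Card9 they were Cmtm7, Tmem40 and Msantd3 (r = 0.97, 0.97 and 0.97), and for Clec4d Il1b, the cytokine interleukin-1 beta, Dscam and the lectin Cd209a (r = 0.96, 0.94 and 0.91). Clec4n was nearest to Nxpe5, Homer3 and the haem-degrading enzyme Hmox1 (r = 0.90, 0.89 and 0.89), and Nod2 to Ago3, Ipcef1 and the transcription factor Foxp1 (r = 0.97, 0.96 and 0.96). Lists of 3 genes picked from so many are high by construction, and none of these 15 genes passed the genotype threshold.

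Around the receptors, 87 further genes of these pathways were listed, and 78 were tested. In Sting gt/gt mice 54 stood higher and 24 stood lower, where 55.8% of all genes were higher, and 2 were called, both higher, where 1.92% of all genes were called higher and 3.54% in either direction. A share of 2 in 78 is near that background and is no result about these lists. The median difference was 0.07, beside 0.02 over all genes and 0.18 for the 8 genes.

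The list of other C-type lectins and their coupling had 21 of 26 genes higher, with a median of 0.11. Within scan day 1, 13 of 26 were higher with a median of -0.01. Within scan day 2, where slide and genotype cannot be told apart, 22 were higher with a median of 0.21. Clec4b1 (DCAR), an activating lectin that also uses the Fc receptor gamma chain, was higher by 0.24 (SE 0.10, limma p = 0.0237, exact permutation p = 0.00874), and by 0.24 on each scan day. Its second probe gave 0.14, and the call was lost with quantile normalization (0.22), with median centring (0.23), without scaling (0.18), with the mean of its probes (0.19), with slide as a random or fixed block (0.22 and 0.19), and without WT replicate 3, WT replicate 6 or Sting gt/gt replicate 6 (0.20 to 0.22). Clec2d, a ligand of inhibitory NK cell receptors, was higher by 0.27 (SE 0.12, limma p = 0.0377, exact permutation p = 0.0326), with 0.33 in its second probe, and lost the call with the replicate number as a block (limma p = 0.0521), with quantile normalization (0.25), without scaling (0.21), with slide as a fixed block (0.30), with array weights (0.17), by the Mann-Whitney test, and without any 1 of WT replicates 3 to 7 and Sting gt/gt replicates 2, 3 and 7 (0.22 to 0.27). Both have an adjusted p of 0.999.

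No gene of the other 3 lists passed. In the list of the CARD9 module and the IKK kinases, 11 of 21 genes were higher with a median of 0.01, and the lowest p belonged to Tab3 (-0.24, SE 0.15) and Tab1 (0.17, SE 0.12), partners of the kinase TAK1. Tab3 passed at -0.34 without Sting gt/gt replicate 1, and Tab1 at 0.23 with array weights and an intensity trend. Among the NOD receptors and the regulators of RIPK2, 10 of 18 were higher with a median of 0.03. Slc15a4, a peptide transporter of endolysosomes, was at -0.23 (SE 0.16) and Nagk, the kinase that phosphorylates muramyl dipeptide ahead of NOD2, at 0.25 (SE 0.17). Slc15a4 was called lower in limma once the replicate number was a block or scan day was a term, at the same -0.23.

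Of the targets of CARD9 and RIPK2 signalling, 12 of 13 tested were higher, with a median of 0.13. Within scan day 1, 8 of 13 were higher with a median of 0.07, and within scan day 2, 10 were, with 0.19. The chemokines Cxcl1 and Ccl3 had the lowest p, at 0.44 (SE 0.22, exact permutation p = 0.0734) and 0.13 (SE 0.12, exact permutation p = 0.277). Cxcl1, which attracts neutrophils, was 0.07 higher on scan day 1 and 0.73 higher on scan day 2. It passed without WT replicate 1 or 2 or Sting gt/gt replicate 1 or 6, where it lay between 0.50 and 0.58. Il1a, Il10, Il23a, Csf2, Csf3, Cxcl2 and Ptgs2 were below the filter. On scan day 2 the neutrophil markers were higher as well, by the 0.33 given above, and their part in the values of these targets was not tested.

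**Figure D5:**
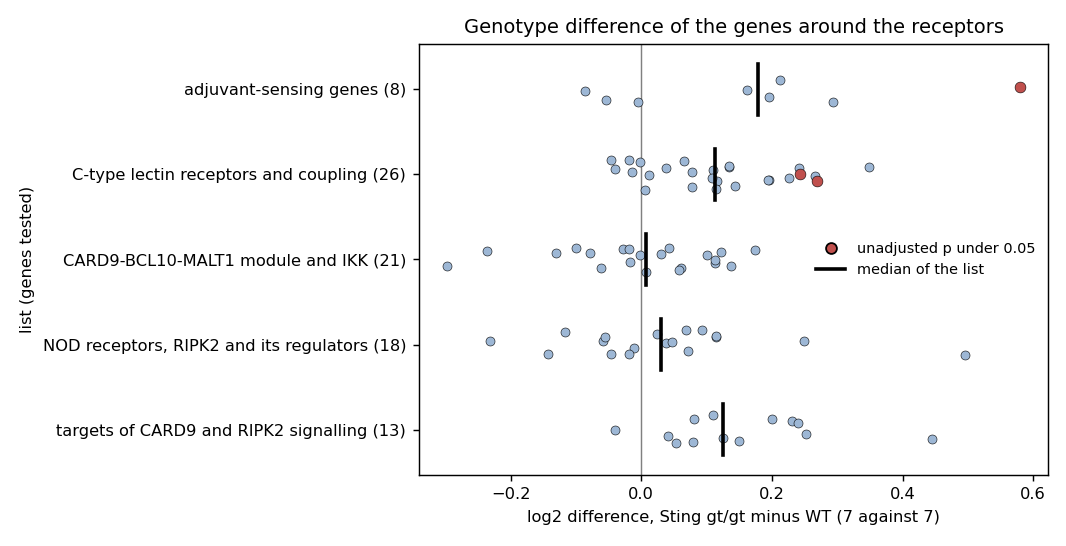
Log2 difference, Sting gt/gt minus WT over 7 against 7 mice (x axis), of the 8 adjuvant-sensing genes and of 4 lists of further pathway genes (rows, with the number of genes tested), 1 point per gene, red where the unadjusted p is under 0.05, with a black bar at each median. Only Card9, Clec4b1 and Clec2d are red, and the medians lie between 0.01 and 0.18.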

How the data were processed

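Splenocyte RNA of 14 mice was measured on one-colour Agilent arrays. Per the labels, the authors used Agilent Feature Extraction 11.0.1.1, which writes for each spot an intensity corrected for background and not normalized between arrays. A table of log2 values was deposited for the whole series, whose normalization is not given in the sources used here and which correlated with the scanner intensity of the same array at 0.997 to 0.999. No column of that table was without a sample.

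The log2 of the processed intensity was taken, and the array's own 75th percentile was subtracted. Spots flagged as outliers were left out and spots of 1 probe averaged. Of 56605 probes, 31766 were well above background on at least 7 of 14 arrays and were tested. Probes were named by accession through RefSeq symbols (32994 probes, 58.3%), and a gene was read from its brightest tested probe, which gave 24908 genes. Limma 3.58.1 in R 4.3.3 compared 7 with 7 arrays without covariates, at an unadjusted p under 0.05 with Benjamini-Hochberg adjustment over all genes beside it. Single values were compared by two-sided exact permutation over 3432 splits, scan-day changes over 1400 splits within days, and correlations over 20736 orders within genotype and scan day. The number of arrays limits the precision. The main tests take the 14 arrays as independent, so their p-values measure the spread between these mice without setting slide apart. With slide as a random block, arrays of the same slide correlated at 0.43.

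The members and the lists of pathway genes and markers were chosen with earlier results of these data known. The genes named are the 9 members, Sting1, the called genes of each list or else its 2 of lowest p, and the 3 genes most like the lectins, Card9 and Nod2. Tfrc was named after its values were seen, 1 other marker is not reported here by name, and the untested or unmatched genes for completeness. Deviations of same-numbered arrays from their genotype means correlated at 0.16 to 0.53. The replicate number was therefore run as a block among the alternatives, while the main tests were unpaired. Once scan-day means were removed, the values ran from -0.41 to 0.25, so the likeness of same-numbered arrays comes with the scan day. Alternatives covered scaling, background correction, the series table, filter, flags, probes, tests, replicate number, slide, scan day, variance model and each array left out. Normexp used the median signal with an offset of 50. The limma step was tested on simulated data. Figures and exact tests used Python 3.11.15, numpy 2.4.6, scipy 1.17.1, pandas 2.3.3 and matplotlib 3.10.9.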

Additional observations from a re-analysis of the deposited data

How the results depend on the processing

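Arrays have no read depth, and Ripk2 and the second Card9 probe were well above background on 10 of 14 arrays only. Unless a cause is named, the cause of a change was not tested. The Card9 difference of 0.58 was above 0 under 33 alternatives, and passed with each array left out (0.47 to 0.73). Not all of these could change its direction. Another test, or the replicate number or scan day in the model, leaves the difference at 0.58 by design, and the other filters and the kept flags also gave 0.58. With slide as a fixed block next to nothing was left (0.0072). The main Card9 probe was dim, with processed intensities of 50 to 150 where the 75th percentiles of the arrays were 403 to 550. With normexp background correction the Card9 difference was a smaller 0.34 and still passed. It did not pass with the mean of its probes (0.41), by the methods' Mann-Whitney test (0.58, exact p = 0.0728), with slide as a random (0.34) or fixed block (0.0072), within scan day 1 (0.21) or with the other probe (0.24). The count of the 8 genes past the threshold, 1, was 0 under the first 5 of these, 2 with array weights and an intensity trend, and 1 to 2 with an array left out. The count over all genes, 882, was 1928 in the authors' series table, 1408 with the replicate number as a block, 1803 with scan day as a term, 439 with slide as a random block, 5911 within scan day 2, 4419 with array weights, and 494 to 1963 with an array left out, lowest without Sting gt/gt replicate 6 (530 without replicate 5) and highest without replicate 1. The count of other pathway genes, 2, was 0 with quantile normalization or no scaling, 1 with median centring, the mean of probes or either slide block, 4 with normexp, the series table or scan day as a term, 14 within scan day 2, 13 with array weights, and 0 to 9 with an array left out (0 without WT replicate 3 or 6, 9 without Sting gt/gt replicate 1). Among the 8 genes and the pathway genes named, the replicate number as a block changed the calls of Clec2d and Slc15a4 and no other (Tfrc and the most alike genes were not run). Each replicate number holds 1 array of each genotype, so this block cannot change a difference, only its p. The limma p of Card9 was 0.0293 under it.

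The following differences turned their sign. Bcl10 turned to 0.078 within scan day 2 and 0.044 with array weights, and ran from -0.053 to 0.051 with an array left out. Malt1 turned to 0.041 within scan day 1. Nod2 turned to -0.068 and -0.24 with slide as a random or fixed block and to -0.11 within scan day 1. Ripk2 turned to 0.069 with normexp and ran from -0.24 to 0.12 with an array left out. Sting1 turned to -0.019 without scaling, -0.015 and -0.10 with slide as a random or fixed block and -0.061 within scan day 1, and ran from -0.00091 to 0.080 with an array left out. With slide as a fixed block Tab3 turned to 0.040 and Cxcl1 to -0.10.

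The scan-day differences were recomputed in 6 ways chosen after seeing the data. Median centring moved the median of all genes between the days by 0.17. The series table turned Clec4e to -0.19, Card9 to -0.32 and Ripk2 to -0.029, the mean of probes turned Card9 to -0.26 and Malt1 to -0.27, and normexp turned Ripk2 to -0.040. The correlation of Nod2 with the erythroid markers was -0.93 with genotype means alone removed and -0.98 and -0.76 within the scan days. For Card9 with the neutrophil markers it was 0.72 with genotype means alone removed and 0.75 without the 2 farthest mice, and for Clec4e 0.38 with genotype means alone removed and 0.93 within scan day 2.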
